A study of Mus musculus with 12 samples.

Results

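The Tin2 S341X line Mut-2 was compared with the Tin2 S341X line Mut-1, gene by gene, to see what differs between lines that carry the same mutation. The lines were named by the sample labels and no measured value was used to choose them. They gave 6 of the 12 libraries of the study, and 16533 of the 31641 gene symbols in the count table passed a filter on low counts and were tested. Both mutant lines, Mut-2 and Mut-1, have the genotype Tin2 S341X, and both reference lines, WT-2 and WT-1, are wild type. All 4 lines are mouse embryonic stem cells from C57BL/6 blastocysts whose medium held serum and LIF; they grew on feeder layers of mouse embryonic fibroblasts, and total RNA was extracted from these mixed cultures. The series describes the 3 libraries of a line as technical replicates. The p-values below therefore measure the spread between libraries of a line, not between independent lines, and each genotype rests on a pair of lines.

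TIN2, encoded by Tinf2, is a subunit of shelterin, the complex that covers the telomeric repeats and holds the telomere-binding proteins together. S341X is a premature stop in that protein. Embryonic stem cells are propagated for many divisions, and lines of 1 genotype are known to drift apart through gain of chromosome segments, through changes of DNA methylation at germline and X-linked genes, and through the share of cells in alternative states. Bulk RNA does not tell fewer cells of a type from less RNA per cell, and this holds for every level given below.

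Library totals were 15251613 to 16504142 counts in Mut-2, 14766477 to 16816094 in Mut-1 and 15127354 to 17891894 in the wild-type lines. Levels are given in CPM, counts scaled to a common library size, after TMM normalization. Tinf2, the mutated gene, had 30.1, 27.5 and 19.7 CPM in Mut-2, against 29.8, 25.2 and 20.1 CPM in Mut-1 and 57.7 to 69.2 CPM in the 6 wild-type libraries. The mutant lines overlapped each other and lay below every wild-type library, and the log2 fold change of Mut-2 over Mut-1 was 0.043 ± 0.17 (SE, edgeR adjusted p = 0.977). The stem-cell factors were present at like levels in both lines: Pou5f1 ranged from 281 to 359 CPM in Mut-2 and from 241 to 312 CPM in Mut-1, and Sox2 from 380 to 433 CPM in Mut-2 and from 376 to 419 CPM in Mut-1. The 36 feeder fibroblast markers took 1.53%, 1.67% and 0.939% of the counts in Mut-2 and 1.77%, 0.885% and 0.753% in Mut-1, against 0.679% to 0.960% in the wild-type lines. The feeder share was uneven within each mutant line and overlapped between them (exact two-sided permutation test, p = 0.7, where 0.1 is the smallest p that 3 against 3 libraries allow). WT-1 replicates 1 and 2 differed far less than other pairs (chi-square per degree of freedom 1.62, against at least 9.83 for every other pair of libraries), so WT-1 is given by its libraries or its range, and no SD is given for it.

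The mutant lines differed in few genes. With edgeR's quasi-likelihood test, 7 genes were higher in Mut-2 (0.0423% of the genes tested) and 13 were lower (0.0786%) at an adjusted p under 0.05 and a fold change of at least 2-fold, that is an absolute log2 value of at least 1. At any fold change the counts were 8 higher (0.0484%) and 35 lower (0.212%). Both directions together made 20 genes (0.121%) with the fold limit and 43 (0.26%) without. In each of the 43 genes the 3 Mut-2 libraries did not overlap the 3 Mut-1 libraries. Such non-overlap was seen in 910 of all tested genes in the higher direction (5.5%) and in 1095 in the lower (6.62%), and between the wild-type lines in 1153 with WT-2 higher (6.97%) and 979 with WT-2 lower (5.92%). The median absolute log2 fold change over all tested genes was 0.17. The SD of the log2 differences between a Mut-2 and a Mut-1 library had a median of 0.403 over the pairs of libraries, against 0.361 between libraries within Mut-2 and 0.412 within Mut-1, so the distance between the lines lay between the distances within them.

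WT-2 and WT-1, compared in the same fit, differed in 3 genes that were higher in WT-2 (0.0181%) and in 0 that were lower (0%). At an unadjusted p under 0.05 there were 1138 genes between the mutant lines and 1258 between the wild-type lines, and DESeq2 called 10 genes higher in WT-2 and 29 lower. Only Wdfy1 passed the threshold in both pairs. Whether the count of genes differed between the mutant and the wild-type pair was not tested.

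**Figure D1:**
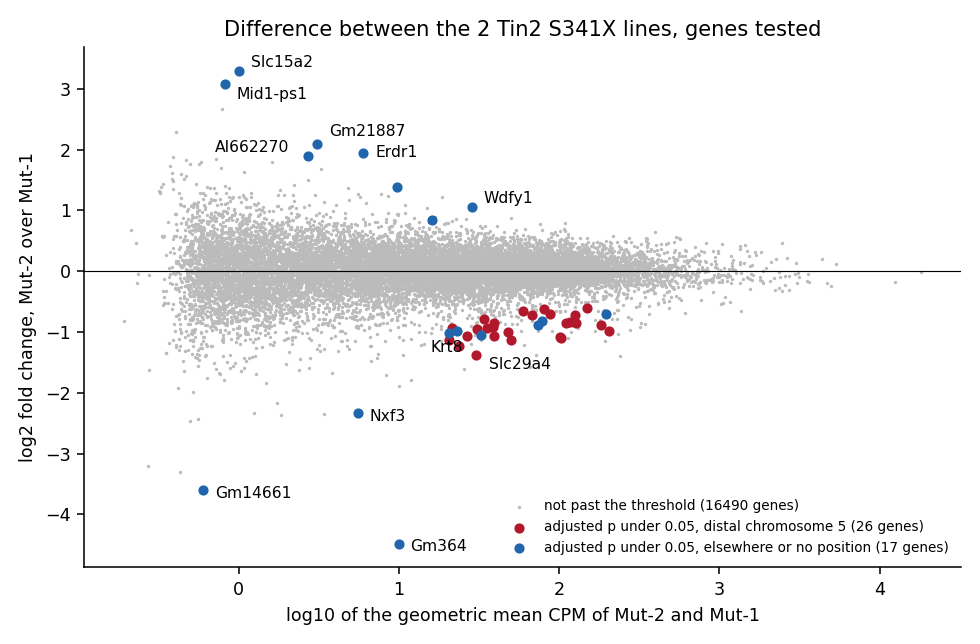
Difference between the mutant lines against level for the genes tested. The x axis is the log10 of the geometric mean CPM of Mut-2 and Mut-1 and the y axis the log2 fold change of Mut-2 over Mut-1. Red points are the 26 genes of distal chromosome 5 with an adjusted p under 0.05, which lie between -1.39 and -0.61, and blue points are the 17 other genes with an adjusted p under 0.05.

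Most of the genes that were lower in Mut-2 came from 1 stretch of the genome. Of the 35 genes lower at any fold change, 26 lay at the end of chromosome 5, and 8 of the 13 lower by at least 2-fold lay there too. The exceptions with at least a 2-fold difference were Gm364, Nxf3 and Gm14661 on chromosome X, the keratin gene Krt8 on chromosome 15 and Ccdc141 on chromosome 2. The promoters of 3 of these genes are shown because the genes stand for the different places in which Mut-2 was lower: the X-linked gene with the widest difference (Gm364), the distal chromosome 5 gene with the smallest p (Slc29a4) and the gene of the epithelial list (Krt8). The sequences run from 250 bases before to 50 after the gene start in RefSeq on GRCm38.p6, and capitals mark CpG dinucleotides, the sites of DNA methylation.
Gm364: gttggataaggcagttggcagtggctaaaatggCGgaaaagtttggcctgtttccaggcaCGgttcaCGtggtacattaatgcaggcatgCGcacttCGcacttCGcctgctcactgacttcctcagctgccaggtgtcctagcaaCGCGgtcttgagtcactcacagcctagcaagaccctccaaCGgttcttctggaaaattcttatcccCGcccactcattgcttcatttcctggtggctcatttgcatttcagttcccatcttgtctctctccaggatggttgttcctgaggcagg
Slc29a4: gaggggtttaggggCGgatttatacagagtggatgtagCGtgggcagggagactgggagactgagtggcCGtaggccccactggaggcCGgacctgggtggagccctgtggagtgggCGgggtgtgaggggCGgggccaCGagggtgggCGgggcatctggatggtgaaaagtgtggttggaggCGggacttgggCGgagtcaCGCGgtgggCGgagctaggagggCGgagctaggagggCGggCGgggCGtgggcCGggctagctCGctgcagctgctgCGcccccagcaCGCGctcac
Krt8: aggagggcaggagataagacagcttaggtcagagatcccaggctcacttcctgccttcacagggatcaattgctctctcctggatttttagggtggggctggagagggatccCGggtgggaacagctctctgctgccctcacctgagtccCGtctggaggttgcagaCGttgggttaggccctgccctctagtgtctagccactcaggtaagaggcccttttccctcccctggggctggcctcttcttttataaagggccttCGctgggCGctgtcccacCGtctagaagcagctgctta
The Gm364 window is chrX:57408899-57409198 on the plus strand and holds 10 CpGs, a number reached by 43.5% of the 32851 mouse promoter windows in RefSeq. The Slc29a4 window is chr5:142701851-142702150 on the plus strand and holds 22 CpGs, a number reached by 23.1% of promoters. It lies inside the span that GENCODE gives the gene, 142692512 to 142722490, and no window is shown for the start of that span. The Krt8 window is chr15:102004293-102004592 on the minus strand and holds 6 CpGs, a number reached by 56.4% of promoters. The CpG motif reads CG on both strands, so 1 count serves both, and the number is a description of the window and not of its methylation, which was not measured.

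Gm364, a predicted protein-coding gene on chromosome X (57409154 to 57488767) that is named after its values were seen, was the gene with the largest fold change. It had 1.83, 2.69 and 1.73 CPM in Mut-2 against 33.9, 44.0 and 62.6 CPM in Mut-1. Wild-type libraries had 0.468 to 5.09 CPM, so Mut-1 alone was high and every Mut-1 library lay above every other library. The log2 fold change was -4.48 ± 0.51 (SE, edgeR adjusted p = 0.00386), a 22.4-fold difference. The line's total was 100 counts in Mut-2 and 2206 in Mut-1.

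Nxf3, an X-linked member of the family of nuclear RNA export factors (136072099 to 136085255), showed the same order of lines. It had 2.40, 1.88 and 3.05 CPM in Mut-2 against 13.1, 9.87 and 14.1 CPM in Mut-1, and WT-2 had 1.90 to 3.37 CPM and WT-1 0.473 to 0.896 CPM. Its log2 fold change was -2.34 ± 0.30 (SE, edgeR adjusted p = 0.00598). Gm14661, also X-linked, annotated as an antisense RNA whose reads cannot be told from those of its sense partner, and sparsely read with 7 counts over Mut-2 and 87 over Mut-1, had 0.172, 0.250 and 0 CPM in Mut-2 against 2.24, 2.07 and 1.24 CPM in Mut-1, and at most 0.468 CPM in any wild-type library. It had a log2 fold change of -3.60 ± 0.66 (SE, edgeR adjusted p = 0.0391). Chromosome X as a whole did not shift: the median log2 difference of its 373 genes of at least 5 CPM was 0.03 relative to the autosomes.

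The distal chromosome 5 genes formed a block. The point at which the difference stepped was found from these values and lay at the start of Amz1 at 140724127 (GRCm38), and what follows is therefore a description. From there to the end of the chromosome, 75 of 77 genes with at least 5 CPM were lower in Mut-2, with a median log2 difference of -0.74 and an interquartile range from -0.95 to -0.60. The 669 genes before that point had a median of -0.02. The median level of the block's genes, centred on the 12 libraries, was -0.24, -0.19 and -0.18 in the Mut-2 libraries and 0.44, 0.55 and 0.65 in the Mut-1 libraries, on the log2 scale. All 6 wild-type libraries lay between -0.19 and -0.15, so that Mut-2 sat beside the wild-type lines and Mut-1 stood apart. On a linear scale the median difference was 1.67-fold. Of 116 tested genes in the block, 26 passed the adjusted p at any fold change (22.4%), and in 77 the libraries of the lines did not overlap (66.4%). No tested gene in the block had all its Mut-2 libraries above its Mut-1 libraries.

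**Figure D2:**
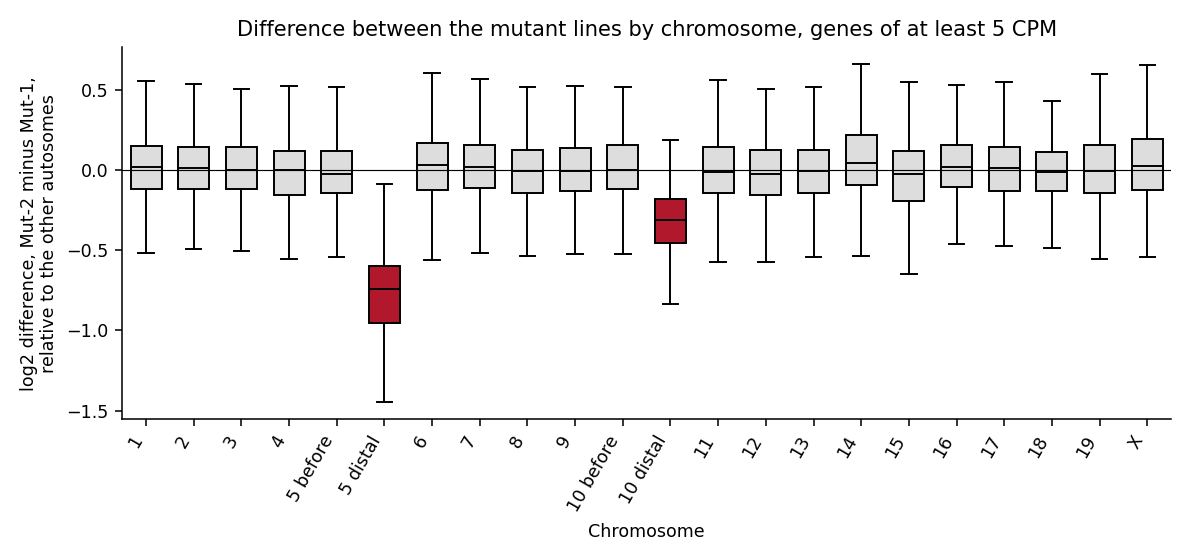
Log2 difference of Mut-2 minus Mut-1 for genes of at least 5 CPM by chromosome, after subtracting the median of all other autosomes. Boxes span the quartiles with the median as a line, whiskers reach the farthest gene within 1.5 interquartile ranges, and chromosomes 5 and 10 are divided at the step found from these values. The distal parts, in red, have medians of -0.74 and -0.31, and other boxes are centred near 0.

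Among the block's membrane and trafficking genes, Slc29a4, a transporter of monoamines (142692512 to 142722490), had 20.1, 16.3 and 19.3 CPM in Mut-2 against 46.0, 47.7 and 52.3 CPM in Mut-1. It was 20.2 to 25.4 CPM in the wild-type lines, and its log2 fold change of -1.39 ± 0.13 (SE, edgeR adjusted p = 0.00135) had the smallest p of all genes. Ap5z1, a subunit of an endosomal adaptor complex (142463944 to 142478710), had 28.8, 35.5 and 36.3 CPM in Mut-2 against 58.6, 87.6 and 75 CPM in Mut-1, with a log2 fold change of -1.14 ± 0.16 (SE, edgeR adjusted p = 0.00869). Ccz1 takes part in activating the late-endosomal GTPase Rab7. It had 65, 67.7 and 74.8 CPM in Mut-2 against 116.5, 162 and 162 CPM in Mut-1 (log2 fold change -1.09, edgeR adjusted p = 0.00483). Zdhhc4, a protein palmitoyltransferase, had 23.1, 28.1 and 30.4 CPM in Mut-2 against 46.8, 58.2 and 66.7 CPM in Mut-1 (log2 fold change -1.07, edgeR adjusted p = 0.00869). Mut-1 was the line with the highest mean for each of them and its libraries lay above all others.

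Other genes of the block that passed the threshold were Gtf3a, Rbak, Pms2 and Lmtk2. Gtf3a, which encodes the transcription factor of 5S ribosomal RNA genes (146948657 to 146955614), had 17.9, 12.8 and 15.4 CPM in Mut-2 against 31.3, 37.2 and 39.7 CPM in Mut-1, with a log2 fold change of -1.23 ± 0.17 (SE, edgeR adjusted p = 0.00742). Rbak, a KRAB zinc finger protein that binds the retinoblastoma protein, had 15.9, 12.1 and 13.6 CPM in Mut-2 against 27.5, 33.7 and 30.1 CPM in Mut-1 (log2 fold change -1.14, edgeR adjusted p = 0.00885). Pms2, an endonuclease of DNA mismatch repair (143909964 to 143933968), had 19.2, 16.4 and 19.7 CPM in Mut-2 against 34.2, 40.8 and 40.3 CPM in Mut-1, with a log2 fold change of -1.06 ± 0.16 (SE, edgeR adjusted p = 0.00885). Lmtk2, a membrane-anchored kinase, had 71.6, 65.2 and 74.5 CPM in Mut-2 against 135, 158 and 158 CPM in Mut-1 (log2 fold change -1.09, edgeR adjusted p = 0.00483).

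Below a 2-fold difference the block added 18 genes. Among them was Brca2, a gene of homologous recombination, with 90.0, 106 and 90.4 CPM in Mut-2 against 137, 199 and 179.8 CPM in Mut-1. The log2 fold change was -0.85 ± 0.15 (SE, edgeR adjusted p = 0.0295). The others included the autophagy genes Wipi2 and Tecpr1, the deubiquitinase genes Usp42 and Usp12, the cohesin regulator Pds5b, the Mediator kinase Cdk8, the histone acetyltransferase cofactor Trrap, the actin-nucleating subunit Arpc1a and the ubiquitin ligase genes Fbxl18 and Rnf216. Over the 26 genes the log2 fold change ran from -1.39 to -0.61 with a median of -0.93. Mut-1 was 1.38 to 2.67 times the mean of the wild-type lines, while Mut-2 was 0.781 to 1.22 times that mean. In all 26 genes every Mut-1 library lay above every wild-type library, and in 3 of them the Mut-2 libraries lay outside the wild-type range.

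**Figure D3:**
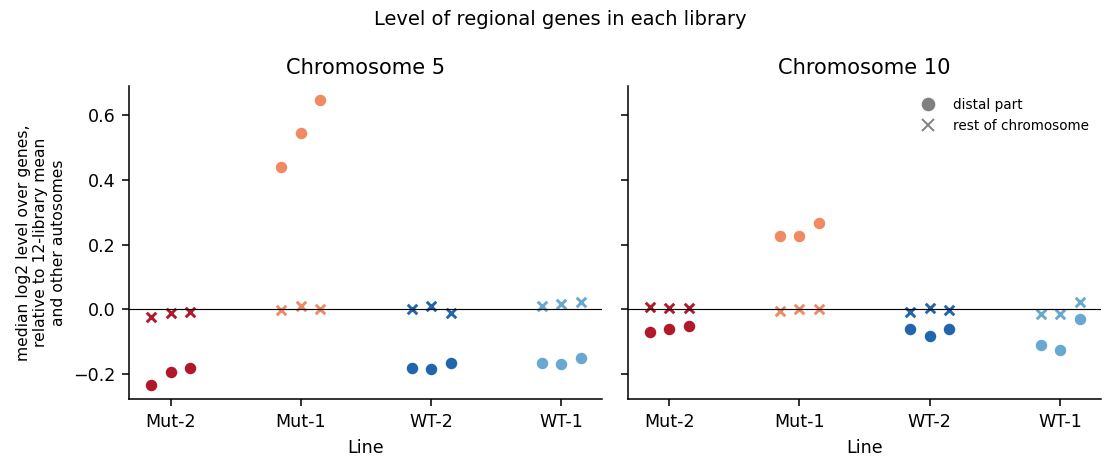
Median log2 level of the genes of distal chromosome 5 (left) and distal chromosome 10 (right) in each library, relative to the mean of the 12 libraries and to the other autosomes. Circles are the distal parts, crosses the rest of the chromosome, and the 3 points of a line are its replicates. Circles of Mut-1 lie at 0.44 to 0.65 on chromosome 5 and at 0.23 to 0.27 on chromosome 10, and the circles of Mut-2 and of both wild-type lines lie below 0.

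A second, weaker block lay on chromosome 10. From the start of Tmpo at 91147571, again a point found from these values, 135 of 154 genes with at least 5 CPM were lower in Mut-2, with a median log2 difference of -0.31, against 0.00 for the 390 genes before it. The level of the block was -0.07, -0.06 and -0.05 in Mut-2 and 0.23, 0.23 and 0.27 in Mut-1, and -0.13 to -0.03 in the wild-type libraries. Of its 202 tested genes, 66 did not overlap between the lines in the lower direction (32.7%) and 3 in the higher. Only Pawr passed the adjusted p. Pawr encodes a leucine-zipper protein that promotes apoptosis, and it had 59.3, 62.7 and 53.7 CPM in Mut-2 against 99.96, 102 and 109 CPM in Mut-1, with a log2 fold change of -0.82 ± 0.11 (SE, edgeR adjusted p = 0.00672). It had 50.04 to 64.4 CPM in the wild-type lines. Gli1, the transcriptional effector and target of Hedgehog signalling, also lay there. It had 22.4, 14.2 and 19 CPM in Mut-2 against 44.2, 37.1 and 46.1 CPM in Mut-1 and 9.82 to 20.6 CPM in the wild-type lines, a log2 fold change of -1.20 ± 0.23 (SE, edgeR adjusted p = 0.0551, which misses the threshold). DNA copy number was not measured.

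Outside the blocks, Krt8, the type II keratin of simple epithelia (chromosome 15, 101996698 to 102004482), had 26.7, 20.1 and 20.9 CPM in Mut-2 against 46.1, 36.8 and 56.9 CPM in Mut-1. The wild-type lines differed as well, with 22.8 to 25 CPM in WT-2 and 36.2 to 37.6 CPM in WT-1, so Mut-2 overlapped WT-2, and the lowest Mut-1 library lay within the range of WT-1. The log2 fold change was -1.05 ± 0.16 (SE, edgeR adjusted p = 0.011). Ccdc141, a coiled-coil protein of the centrosome, had 16.2, 12.9 and 14.2 CPM in Mut-2 against 28.6, 27.7 and 31.0 CPM in Mut-1 and 12.8 to 21.0 CPM in the wild-type lines (log2 fold change -1.01 ± 0.15, SE, edgeR adjusted p = 0.00885). Gpx2, a glutathione peroxidase, was the exception among the lower genes in that Mut-2 was the line farther from wild type. It had 16.0, 15.7 and 17.4 CPM in Mut-2 against 26.3, 36.4 and 34.1 CPM in Mut-1, and 27.7 to 32.2 CPM in WT-2 and 23.9 to 26.6 CPM in WT-1 (log2 fold change -0.98 ± 0.14, SE, edgeR adjusted p = 0.00885). The processed pseudogene Rpl21-ps15 on chromosome X also passed at any fold change (log2 fold change -0.89, edgeR adjusted p = 0.00885). Its parent Rpl21 lies in the distal chromosome 5 block at 146832890 and had 185, 198 and 242 CPM in Mut-2 against 264, 357 and 430 CPM in Mut-1 (edgeR adjusted p = 0.112). Whether the pseudogene's counts hold reads of its near-identical parent was not tested. AC110377.1 passed as well, at a log2 fold change of -0.70, and has no position in the annotation used.

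The genes that were higher in Mut-2 lay on different chromosomes, apart from a group around the pseudoautosomal region that is described last. Wdfy1, which encodes an endosomal adaptor protein with WD repeats and a FYVE domain (chromosome 1, 79702262 to 79776143), had 44.2, 44.1 and 34.4 CPM in Mut-2 against 22.8, 18.1 and 18.3 CPM in Mut-1, a log2 fold change of 1.05 ± 0.14 (SE, edgeR adjusted p = 0.00672). It had 36.4, 34.2 and 37.5 CPM in WT-2 and 17.3, 17 and 18.3 CPM in WT-1, where the log2 fold change of WT-2 over WT-1 was 1.04 (edgeR adjusted p = 0.026). The gene thus had a high pair of lines, Mut-2 and WT-2, and a low pair, Mut-1 and WT-1, which cut across the genotype. Its call between the wild-type lines was lost without WT-1 replicate 1 and without WT-1 replicate 2, the near-identical libraries. It was also lost with the 6 wild-type libraries alone. In each of these fits 0 genes passed between WT-2 and WT-1.

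Slc15a2, a proton-coupled peptide transporter (chromosome 16, 36750177 to 36784962), had 4.69, 2.003 and 2.15 CPM in Mut-2 against 0.545, 0.207 and 0.124 CPM in Mut-1. Wild-type libraries had 0.992 to 3.14 CPM, so here the low line was Mut-1, with 14 counts in all against 145 in Mut-2. The log2 fold change was 3.29 ± 0.59 (SE, edgeR adjusted p = 0.0387). Pdcd4, an inhibitor of translation initiation, had 22.2, 18.6 and 23.5 CPM in Mut-2 against 12, 12.1 and 11.5 CPM in Mut-1 and 18.2 to 24.9 CPM in WT-2 and 17.4 to 19.4 CPM in WT-1, so that Mut-1 was the low line again (log2 fold change 0.85 ± 0.15, SE, edgeR adjusted p = 0.0387).

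Of the other genes higher in Mut-2, 3 belong to the end of the X chromosome next to the pseudoautosomal region or to copies of its genes. Erdr1, named for a role in erythroid differentiation, had 10.5, 11.1 and 13.4 CPM in Mut-2 against 4.54, 2.62 and 1.92 CPM in Mut-1 and 2.11 to 3.45 CPM in the wild-type lines (log2 fold change 1.94 ± 0.30, SE, edgeR adjusted p = 0.011). Gm21887, which RefSeq lists as a synonym of Erdr1, had 5.09, 7.20 and 6.58 CPM in Mut-2 against 2.30, 1.03 and 1.06 CPM in Mut-1, so these symbols may count the same transcripts and are not separate evidence. Mid1-ps1, a copy of the X-linked gene Mid1 that is annotated on chromosome Y, had 1.32, 2.003 and 3.32 CPM in Mut-2 against 0.424, 0.138 and 0.186 CPM in Mut-1 (log2 fold change 3.08 ± 0.57, SE, edgeR adjusted p = 0.0454). Mid1 itself had 3.55, 4.51 and 4.78 CPM in Mut-2 against 5.51, 2.21 and 2.23 CPM in Mut-1 and did not pass (edgeR adjusted p = 0.893). Reads of such copies cannot be assigned with certainty. AI662270, an unnamed transcript, had 3.38, 6.20 and 5.75 CPM in Mut-2 against 0.968, 1.52 and 1.61 CPM in Mut-1, a log2 fold change of 1.90 ± 0.33 (SE, edgeR adjusted p = 0.0309). The wild-type lines differed as well, with 0.793 to 1.45 CPM in WT-2 and 3.10 to 4.02 CPM in WT-1. Mut-1 thus overlapped WT-2, and Mut-2 replicate 1 lay within the range of WT-1.

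**Figure D4:**
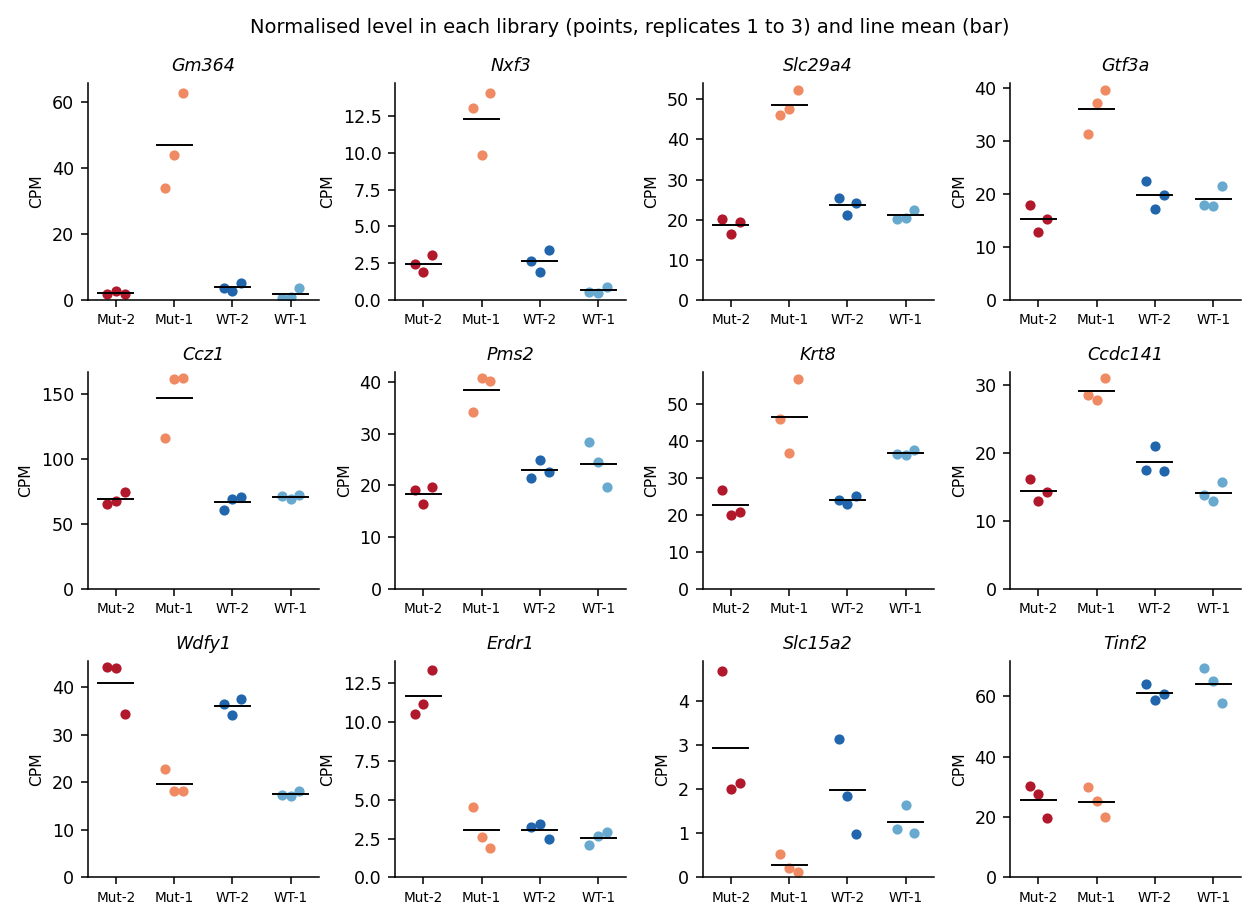
Level in CPM of 12 genes in each library, with replicates 1 to 3 of a line as points and the line mean as a bar, every axis starting at 0. Mut-1 is the high line for Gm364, Nxf3, Slc29a4, Gtf3a, Ccz1, Pms2, Krt8 and Ccdc141, Mut-2 for Erdr1, and Tinf2 is low in both mutant lines.

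Set against the wild-type lines, Mut-1 was the line that stood apart in most of these genes, and most of those lay in the distal chromosome 5 block. Of the 20 genes past the threshold, Mut-1 was farther from the midpoint of the WT-2 and WT-1 means, each over its 3 libraries, in 14 and Mut-2 in 6. The 8 distal chromosome 5 genes past the threshold are among the 14. Elsewhere Mut-1 was farther in all 5 genes lower in Mut-2 and in 1 of the 7 higher, and Mut-2 in 6 of the higher. Of the 43 genes at any fold change, Mut-1 was farther in 36 and Mut-2 in 7, and 26 of the 36 are the distal chromosome 5 genes. In all 35 genes lower in Mut-2, Mut-1 was the highest of the 4 lines, and in 7 of the 8 genes higher in Mut-2, Mut-2 was the highest. Leaving out WT-1 replicate 3 gave 7 genes higher and 22 lower, leaving out Mut-2 replicate 2 gave 0 and 2, leaving out Mut-1 replicate 3 gave 0 and 3, and leaving out Mut-1 replicate 2 gave 0 and 9. The genes higher in Mut-2 numbered 4 without Mut-2 replicate 1, 2 without Mut-2 replicate 3 and 3 without WT-1 replicate 1 or without WT-1 replicate 2. With the 6 mutant libraries alone 0 were higher and 4 lower, and without the 3 mutant libraries of highest feeder share, which leaves Mut-2 with replicate 3 alone, assumed to vary like the other lines, 0 were higher and 1 was lower. With the replicate number as a block, 8 genes were higher and 20 lower. Slc29a4 and Gm364 passed the threshold in 19 of 20 alternatives, Lmtk2 in 18, Nxf3 in 17, Gtf3a in 16 and Krt8 in 15. Erdr1 passed in 14, Wdfy1 in 13 and AI662270 in 10, while Slc15a2 passed in 9 of 19 and Mid1-ps1 in 7 of 19. Without the fold limit, the adjusted p was under 0.05 for Brca2 in 10 of 20 alternatives, Pdcd4 in 9 and Pds5b in 8.

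Lists of genes for the pathways and cell states of stem cells were read by their counts and medians, beside 8744 of 16533 tested genes that were higher in Mut-2 (52.9%), a median log2 fold change of 0.02 and 12.1% of genes whose lines did not overlap. No list member other than Krt8 and, at any fold change, Brca2 passed the adjusted p. The values below are thus differences that no gene-level test called.

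For the telomere, 20 genes of shelterin, telomerase and the CST complex had a median log2 fold change of 0.10, with 13 higher and 7 lower in Mut-2. By edgeR 0 of them passed the adjusted p and 2 had an unadjusted p under 0.05. The share whose lines did not overlap was 10%, with 1 gene higher and 1 lower in Mut-2, against 12.1% of all genes tested. The lines did not overlap in Acd, which recruits telomerase as the shelterin subunit TPP1, with 30.5, 29.3 and 33.2 CPM in Mut-2 against 39.5, 36.2 and 42.7 CPM in Mut-1 (edgeR adjusted p = 0.571). They did not overlap either in Nop10, a component of the telomerase ribonucleoprotein, with 55.3, 60.5 and 84.3 CPM in Mut-2 against 39.5, 48.1 and 46.2 CPM in Mut-1 (edgeR adjusted p = 0.482). Terf1, which encodes the shelterin protein that binds TIN2 on duplex telomeric DNA, had 140, 147 and 145 CPM in Mut-2 and 116, 169 and 167 CPM in Mut-1, overlapping levels. The 35 recombination genes had a median of 0.02, and Brca2 was their only member past the adjusted p and lies in the distal chromosome 5 block. Brca2 passed the adjusted p in 10 of 20 alternatives. The 23 genes of core and naive pluripotency had a median of 0.03 and ranged from -0.43 to 0.41.

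Targets of p53, the transcription factor that answers DNA damage, were mostly higher in Mut-2. Of 26 tested, 22 were higher, the median log2 fold change was 0.32, and 11 had an unadjusted p under 0.05. The lines did not overlap in 8 of them (30.8%), of which 7 were higher in Mut-2. Btg2, an antiproliferative gene, had 88.4, 95.9 and 145 CPM in Mut-2 against 80.3, 68.5 and 65.1 CPM in Mut-1 (edgeR adjusted p = 0.421). Bbc3, which encodes the pro-apoptotic protein PUMA, had 33.0, 35.5 and 65.5 CPM in Mut-2 against 24.6, 25.8 and 29.7 CPM in Mut-1 (edgeR adjusted p = 0.641). Pmaip1, which encodes NOXA, another pro-apoptotic protein, had 170.5, 171 and 208 CPM in Mut-2 against 134, 142 and 137 CPM in Mut-1 (edgeR adjusted p = 0.418). Mdm2, the ubiquitin ligase that limits p53, lies in the chromosome 10 block and had 218, 254 and 332 CPM in Mut-2 against 274, 216 and 227 CPM in Mut-1, with overlap. Eda2r, a death-receptor-family gene on X, went the other way, with 12.8, 18.6 and 17 CPM in Mut-2 against 22, 24 and 23.6 CPM in Mut-1. The list's median level by library, on the log2 scale and centred over the 6 mutant libraries, was 0.05, 0.10 and 0.27 in Mut-2 and -0.07, -0.23 and -0.18 in Mut-1.

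The integrated stress and unfolded protein response list, led by Atf4 and the amino acid synthesis and uptake genes it drives, was mostly lower in Mut-2. Of 20 genes tested, 15 were lower, the median was -0.56, and the lines did not overlap in 9 (45%), 8 of them lower. Psat1 of serine synthesis had 135, 211 and 141 CPM in Mut-2 against 294, 340 and 367 CPM in Mut-1 (log2 fold change -1.04 ± 0.25, SE, edgeR adjusted p = 0.23). Shmt2, the mitochondrial serine hydroxymethyltransferase, lies in the chromosome 10 block and had 207, 305 and 211 CPM in Mut-2 against 362, 445 and 505 CPM in Mut-1 (edgeR adjusted p = 0.0683). Slc7a5, an amino acid transporter, had 233, 326 and 206 CPM in Mut-2 against 410.4, 443 and 547 CPM in Mut-1 (edgeR adjusted p = 0.482). Asns, asparagine synthetase, had 658, 752 and 542 CPM in Mut-2 against 793, 922 and 997 CPM in Mut-1 (edgeR adjusted p = 0.424). For Psat1 the wild-type libraries ranged from 219.5 to 408 CPM, which places Mut-2 below them and Mut-1 among them. For Shmt2 the order was another. Its wild-type libraries ranged from 268 to 351 CPM, every Mut-1 library lay above them, and Mut-2 overlapped their range. Without the 2 members in the chromosome 5 and 10 blocks the list's median was -0.51.

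The epithelial and keratin list had a median of -0.65, with 9 of 11 tested genes lower in Mut-2 and 6 that did not overlap between the lines (54.5%), 5 of them lower. Esrp1, a regulator of epithelial splicing, had 6.35, 4.51 and 8.17 CPM in Mut-2 against 23.5, 17.9 and 24.5 CPM in Mut-1, and 5.38 to 24.4 CPM in the wild-type libraries (edgeR adjusted p = 0.265). Krt18, the partner of Krt8 in filaments, had 16.8, 12.1 and 8.86 CPM in Mut-2 against 23.6, 20.4 and 25.1 CPM in Mut-1 (edgeR adjusted p = 0.312). Cldn7, a tight-junction claudin, had 16.7, 8.14 and 7.89 CPM in Mut-2 against 31.0, 19.9 and 25.8 CPM in Mut-1 (edgeR adjusted p = 0.421). Wild-type libraries had 14.0 to 25.5 CPM of Krt18 and 13.2 to 42.4 CPM of Cldn7, ranges that held every Mut-1 library. In Esrp1, Krt18 and Cldn7, unlike Krt8, Mut-2 was the line farther from wild type. Perp, a desmosome gene, was higher, with 42.5, 50.9 and 49.1 CPM in Mut-2 against 42.2, 34.4 and 30.1 CPM in Mut-1. For these genes other than Krt8, no call was made and the wild-type lines spread as widely as the mutant lines in Esrp1. The 13 tested trophoblast markers, of which Rhox6 and Rhox9 also stand in the X-linked list, were all lower in Mut-2, with a median of -0.45. By edgeR 0 of them passed the adjusted p and 4 had an unadjusted p under 0.05. The 15 trophoblast markers in the table summed to 95.9 to 141 CPM in Mut-2 and 139 to 158 CPM in Mut-1 (exact two-sided permutation test, p = 0.2), against 146 to 171 CPM in the wild-type lines, and 0 of them were at 0 in all mutant libraries. Their part in the epithelial values was not tested.

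Germline genes, which DNA methylation keeps silent in somatic cells, gave a median of -0.24, with 26 of 34 lower in Mut-2. The lines did not overlap in 8 (23.5%), all 8 of them lower, against 6.62% of all genes tested in that direction. The list's median level by library was 0.03, -0.03 and -0.48 in Mut-2 and 0.11, 0.15 and 0.31 in Mut-1, so Mut-2 replicate 3 was the lowest. Syce1 of the synaptonemal complex had 9.73, 8.01 and 5.47 CPM in Mut-2 against 12.3, 13.9 and 17 CPM in Mut-1 (edgeR adjusted p = 0.232). Taf7l, an X-linked germ-cell subunit of the general transcription machinery, had 9.79, 7.95 and 3.60 CPM in Mut-2 against 15.1, 11.0 and 21.0 CPM in Mut-1 (edgeR adjusted p = 0.667). Ddx4, the germ-cell RNA helicase also called Vasa, had 18.4, 14.8 and 12.3 CPM in Mut-2 against 20.6, 20.8 and 22.5 CPM in Mut-1 (edgeR adjusted p = 0.57). In the list of Rhox, Xlr and other X-linked testis genes, 9 of 12 were lower, with a median of -0.28. The 46 imprinted genes had a median of 0.09, and the lines did not overlap in 7 of them (15.2%, against 12.1% of all genes tested). Nnat, a paternally expressed gene, was the member with the highest fold change, at 6.58, 12 and 17.4 CPM in Mut-2 against 3.63, 6.35 and 4.97 CPM in Mut-1 (log2 fold change 1.27, edgeR adjusted p = 0.482).

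**Figure D5:**
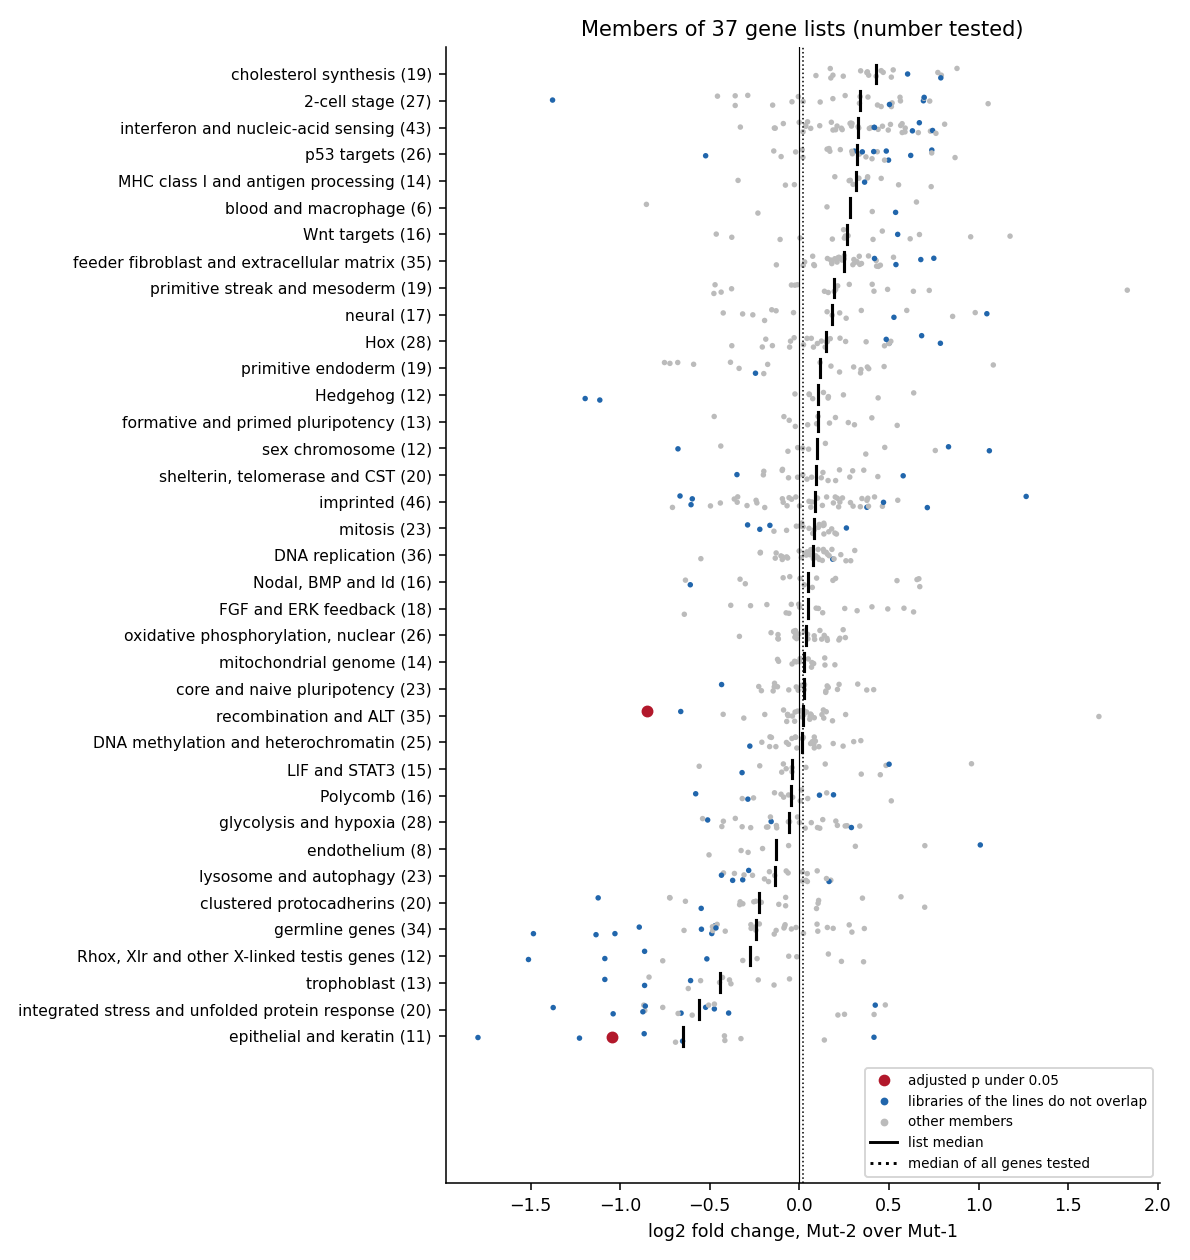
Log2 fold change of Mut-2 over Mut-1 for the tested members of 37 gene lists, ordered by the list median (black bar), with the median of all genes tested as a dotted line. Red points passed an adjusted p under 0.05 (Krt8 and Brca2), blue points are members whose libraries do not overlap between the lines, and the list medians run from -0.65 to 0.43.

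Cholesterol synthesis genes were all on the higher side in Mut-2, 19 of 19, with a median of 0.43. By edgeR 0 of them passed the adjusted p and 0 had an unadjusted p under 0.05. The lines did not overlap in 2 of them (10.5%, against 12.1% of all genes tested). Fdft1, squalene synthase, had 132, 112 and 184 CPM in Mut-2 against 75.6, 105 and 67.6 CPM in Mut-1 (edgeR adjusted p = 0.74), and Hmgcs1, which makes the precursor of mevalonate, had 137, 115 and 170.3 CPM in Mut-2 against 94.9, 102 and 81.2 CPM in Mut-1 (edgeR adjusted p = 0.801). The list's level varied within lines and overlapped between them, at 0.16, -0.03 and 0.49 in Mut-2 and -0.26, 0.11 and -0.45 in Mut-1. Its SD between libraries of a line was 0.27, beside the median of 0.43. In the Hedgehog list, 9 of 12 genes were higher, with a median of 0.10. The pair that did not overlap (16.7% of the list), Gli1 and its fellow target Hhip, was lower. Hhip, a decoy receptor of Hedgehog ligands, had 0.744, 1.06 and 0.485 CPM in Mut-2 against 1.45, 1.38 and 2.17 CPM in Mut-1 (edgeR adjusted p = 0.605).

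Interferon-response and nucleic-acid-sensing genes gave 38 of 43 higher in Mut-2 and a median of 0.33. By edgeR 0 of them passed the adjusted p and 3 had an unadjusted p under 0.05. The lines did not overlap in 5 of them (11.6%, against 12.1% of all genes tested), among them Ifitm3 and Ifih1. Ifitm3, a restriction factor, had 213, 204 and 202 CPM in Mut-2 against 137, 162 and 163 CPM in Mut-1 (edgeR adjusted p = 0.667). The sensor Ifih1 had 6.41, 6.57 and 5.12 CPM in Mut-2 against 4.11, 4.49 and 2.79 CPM in Mut-1 (edgeR adjusted p = 0.804). By library the list's level was 0.46, 0.15 and -0.26 in Mut-2 and -0.19, -0.16 and -0.02 in Mut-1, so Mut-2 replicate 1 was high and replicate 3 was the lowest of the 6. In Ifitm3 and Ifih1, unlike the list, Mut-2 replicate 3 lay above every Mut-1 library. Among the feeder markers, 34 of 35 were higher in Mut-2, with a median of 0.25, and their level was 0.16, 0.45 and -0.10 in Mut-2 and 0.51, -0.41 and -0.59 in Mut-1. The interferon median was 0.34 with each library's feeder share in the model, and without the 3 mutant libraries of highest feeder share, which are Mut-2 replicates 1 and 2 and Mut-1 replicate 1, it was -0.13. Genes of the 2-cell-like state, a rare state of cultured stem cells, had a median of 0.34 with 19 of 27 higher, and a median of -0.05 without those libraries. Genes of MHC class I and antigen processing, at a median of 0.32 with 11 of 14 higher, had a median of -0.06 without them. Those values set a single Mut-2 library, replicate 3, against Mut-1 replicates 2 and 3, so they carry the level of that library, which was the lowest of the 6 on the interferon list. Mut-1 replicate 1, the library of highest feeder share, was at -0.19 on that list.

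Lists with medians near that of all genes were DNA replication (0.07), mitosis (0.08), nuclear-encoded oxidative phosphorylation (0.04), the mitochondrial genome (0.03), DNA methylation and heterochromatin (0.02), Polycomb (-0.05), glycolysis and hypoxia (-0.06), LIF and STAT3 (-0.04), FGF and ERK feedback (0.05) and Nodal, BMP and Id (0.05). Developmental lists had small positive medians: formative and primed pluripotency 0.10, primitive endoderm 0.12, Hox 0.15, neural 0.18, primitive streak and mesoderm 0.19 and Wnt targets 0.26. The SD of the list's level between libraries of a line was 0.33, 0.24, 0.25, 0.15, 0.08 and 0.15 in that order. For the formative, primitive endoderm and Hox lists it exceeded the median. In primitive endoderm 10 genes were higher in Mut-2 and 9 lower. Lysosome and autophagy genes had a median of -0.14, clustered protocadherins -0.23, endothelial markers -0.13, blood and macrophage markers 0.28 and the sex chromosome genes 0.10.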

How the data were processed

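The authors deposited whole-number counts of reads per gene symbol for 12 libraries, not normalized. Per the submitters' processing notes the tools were HTSeq 0.6.0, HISAT2 2.1.0, Bowtie2 2.2.3 and bcl2fastq, on build GRCm38. Gene annotation and strand use were not stated, so overlapping, antisense and near-identical genes cannot be told apart.

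Libraries were grouped by line from the sample titles. Genes passing filterByExpr were fitted over 4 lines and all 12 libraries with TMM and the quasi-likelihood test of edgeR 4.0.16 (R 4.3.3), tested on simulated data. P-values were Benjamini-Hochberg adjusted over all tested genes (threshold 0.05, absolute log2 fold change of 1). A standard error is the log2 fold change over the square root of F. Levels by region and list use log2(CPM + 0.5). Positions are from GENCODE M21 on GRCm38 (29554 symbols) and promoters from RefSeq.

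Genes were named by a rule: of those past the threshold, averaging 2 CPM or more and with lines that do not overlap, the 12 of widest difference in each direction; 6 of at least 50 CPM; genes near 0 in 1 line; called list members; Tinf2. Predicted or lower genes, genes passing only without the fold limit and list examples were chosen after their values were seen. Some genes past the threshold are not reported here. The comparison and the 37 lists were chosen with earlier results of these data known. Alternatives were DESeq2 1.42.0, other normalization and filters, a replicate block, a feeder covariate and leaving out libraries.

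Same-numbered Mut-2 and Mut-1 libraries deviated together from their line means (correlations 0.492, 0.134 and 0.348 over 11468 genes, all above 0.1), although Mut-2 replicate 3 and Mut-1 replicate 2 also did (0.328). The labels do not say what a number marks. The values printed come from the fit without the block, and the counts with the replicate block are given beside them.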

Additional observations from a re-analysis of the deposited data

How the results depend on the processing

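Against 7 genes higher and 13 lower in Mut-2, DESeq2 gave 10 and 36, the fit without a filter on low counts 25 and 74, the replicate block 8 and 20, the feeder share as a covariate 4 and 11, the 6 mutant libraries alone 0 and 4, and the fit without the 3 mutant libraries of highest feeder share, which keeps only replicate 3 of Mut-2, 0 and 1. At any fold change the replicate block gave 10 higher and 58 lower, against 8 and 35. Another normalization gave 7 and 16, and a filter of at least 2 CPM gave 5 and 17. Leaving out 1 library at a time gave 0 to 7 higher and 2 to 22 lower. The counts were 0 and 3 without Mut-1 replicate 3, 0 and 9 without Mut-1 replicate 2, 2 and 15 without Mut-2 replicate 3, 4 and 14 without Mut-2 replicate 1, and 3 higher without WT-1 replicate 1 or WT-1 replicate 2. The alternatives that leave out a wild-type library other than WT-1 replicate 2 were chosen after seeing the data.

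Between WT-2 and WT-1 (3 higher, 0 lower), DESeq2 gave 10 and 29, no filter 51 and 50, the 6 wild-type libraries alone 0 higher, the replicate block 5 and 1, the feeder covariate 3 lower, the fit without the feeder-rich mutant libraries 1 lower, and leaving out 1 library 0 to 23 higher and 0 to 12 lower. The extremes 23 and 12 came without WT-1 replicate 3. Without WT-1 replicate 1, and likewise without WT-1 replicate 2, 0 were higher and 0 lower.

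The distal chromosome 5 median ran from -0.77 to -0.71 over its alternatives and that of distal chromosome 10 from -0.33 to -0.27, with -0.27 without Mut-1 replicate 3. Over the single genes named, all alternatives together held 311 values on the same side of the threshold, 123 that no longer passed and 1 that newly passed. The cause of these changes was not tested. Of the list medians under an alternative, 708 stayed within the spread between libraries and 32 did not. Depth limits the low genes: Gm14661, with 7 counts over Mut-2 and 87 over Mut-1, passed in 6 of 19 alternatives.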

Other observations

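Genes at or near 0 in 1 mutant line were rare. Tmprss11d, a membrane serine protease gene on chromosome 5 outside the distal block, had 0.172, 0.814 and 1.25 CPM in Mut-2 (34 counts) against 0, 0.069 and 0.0621 CPM in Mut-1 (2 counts), and 0.112 to 0.585 CPM in the wild-type libraries. It did not pass the filter on low counts. Cox6a2, the muscle form of a cytochrome oxidase subunit, had 0.114, 0.0626 and 0 CPM in Mut-2 (3 counts) against 0.666, 0.483 and 0.745 CPM in Mut-1 (30 counts, edgeR adjusted p = 0.313), and 0.0594 to 1.18 CPM in the wild-type libraries.

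Y-linked genes were read in both mutant lines. Uty, a histone demethylase paralog, had 3.61, 4.01 and 3.25 CPM in Mut-2 against 2.78, 0.828 and 1.55 CPM in Mut-1 (log2 fold change 1.06, edgeR adjusted p = 0.498), and the RNA helicase gene Ddx3y had 11.1, 15.7 and 10.7 CPM in Mut-2 against 9.50, 7.73 and 3.85 CPM in Mut-1 (log2 fold change 0.83, edgeR adjusted p = 0.548). In both genes every Mut-2 library lay above every Mut-1 library, and neither passed the adjusted p. Over the 12 tested genes of the sex chromosome list the median was 0.10. The lines did not overlap in 2 of the 12 with Mut-2 higher and in 1 with Mut-2 lower (25% together, against 12.1% of all genes tested).

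Chromosome 14 held more genes with Mut-2 above Mut-1 in every library than in the reverse order, 66 against 23 of 538 tested (12.3% and 4.28%). Over all genes tested the shares were 5.5% and 6.62%. Its genes of at least 5 CPM had a median log2 difference of 0.05. A step found from these values lay at the start of Anxa8 at 34085981. The median was -0.08 before it and 0.09 from it, where 104 of 305 genes were lower in Mut-2. No tested gene of the chromosome passed the adjusted p at any fold change.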
